A study of Rattus norvegicus with 8 samples.

Results

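Fatty acid oxidation and peroxisome genes were followed in the kidneys of rats given saline or colistin, a polymyxin given against Gram-negative infection that is known to injure tubule cells. The 39 genes were chosen by name from the pathway, with earlier results of these data known. A probe was taken as a member when its RefSeq accession belonged to a gene of that list. All 39 had at least 1 probe among the 15637 genes that could be named on the array, 33 with 1 probe and 6 with 2. By role, 20 encode mitochondrial enzymes and their carnitine shuttle, 13 peroxisomal enzymes, transporters and peroxins, 4 proteins of fatty acid uptake and activation, and 2 nuclear regulators. All 39 passed the filter on dim probes, and 38 were well above background on all 8 arrays. The exception was Bdh1, well above background on 2 of 4 saline arrays and on all 4 colistin arrays.

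Every sample was kidney RNA, per the labels, from a male rat labelled as 10 weeks of age and sampled on day 28. The saline group had 4 samples with no drug, and the colistin group had 4 samples at 30 mg/kg. The strain, the route and the schedule of dosing are not given in the sources used here, and nothing says that each sample came from its own animal. The p-values therefore cover only how far these samples spread, and some of that spread may be technical. The sampled tissue is labelled kidney, although tubules are what the title names. Of the early proximal tubule markers that passed the filter on dim probes, 11 of 12 were well above background on all 8 arrays. So were 7 of 9 endothelial and 8 of 8 macrophage markers that passed it, so other cell types than tubule were measured as well. The filter itself selects for signal, and of 10 macrophage markers with a probe 8 passed it.

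The saline arrays were dimmer and less alike than the colistin arrays. Their 75th percentile of processed signal was 156 to 197, against 271 to 317, and 69.3% to 75.8% of their spots were well above background, against 79.1% to 83.9%. Within saline an array correlated with its fellows at 0.777 to 0.826 on average, and within colistin at 0.873 to 0.896. The SD was larger in saline than in colistin for 27 of the 39 members and for 67.2% of all genes. Within every slide 16 members (41.0%) had a negative difference, against 27.4% of all genes. A positive one within every slide was found for 6 members, a count for which the share of all genes was not computed.

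The kidney proximal tubule draws most of its energy from fatty acids. They are taken up, joined to coenzyme A and carried into mitochondria as carnitine esters. There a spiral of dehydrogenase, hydratase, dehydrogenase and thiolase steps shortens them. Electrons of the first dehydrogenase step reach the respiratory chain through the electron transfer flavoproteins. Peroxisomes shorten very long and branched chains and bile acid precursors with enzymes of their own, and the nuclear receptor PPAR alpha, with its coactivator PGC-1 alpha, drives many genes of both organelles.

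PPAR alpha binds, together with a retinoid X receptor, direct repeats of the letters AGGTCA with 1 base between them, so the RefSeq promoter windows of the genes (assembly GRCr8, 250 bases before to 50 after the start) were searched on both strands for AGGTCA, any base and AGGTCA again, with at most 2 of the 12 fixed letters differing. A window was on file for 36 of the 39 genes, and 6 of them (16.7%) held such a match, against 1263 of 33469 (3.77%) among all windows of the same length. No window of the 36 held an exact match, while 18 of all windows did. The 6 are shown because they are the members nearest to the motif, each 5′ to 3′ on the gene's strand with the match in capitals.
Acadvl: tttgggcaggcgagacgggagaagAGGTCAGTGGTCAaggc
Amacr: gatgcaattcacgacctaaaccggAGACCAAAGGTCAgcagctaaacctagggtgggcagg
Crat: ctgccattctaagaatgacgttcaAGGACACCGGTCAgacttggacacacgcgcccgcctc
Echs1: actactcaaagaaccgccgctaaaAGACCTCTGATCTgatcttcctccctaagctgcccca
Etfa: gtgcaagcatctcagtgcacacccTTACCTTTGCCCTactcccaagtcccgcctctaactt
Slc27a2: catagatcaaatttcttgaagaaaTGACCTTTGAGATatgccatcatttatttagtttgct
They lie at chr10:55236706-55236746 (minus strand), chr2:61673103-61673163 (plus), chr3:34087286-34087346 (minus), chr1:204333625-204333685 (minus), chr8:64788083-64788143 (minus) and chr3:134258001-134258061 (plus), in that order. The match of Acadvl, with 1 differing letter, is nearest to its gene's start, beginning 17 bases before it. In Echs1, Etfa and Slc27a2 the repeat reads on the opposite strand. A match is a run of letters and not a measured binding site, and the fold changes of these 6 genes, given below, had both signs.

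Hadha and Hadhb, which encode both subunits of the mitochondrial trifunctional protein, are read in opposite directions from starts with 300 bases between them, so that a single stretch serves as upstream sequence for both. It is shown because the results of the pair can be set beside each other, and the capitals mark its nearest match to the repeat, with 3 differing letters and therefore outside the limit set.
Hadha, upstream 250 bases, chr6:31907551-31907800, plus strand: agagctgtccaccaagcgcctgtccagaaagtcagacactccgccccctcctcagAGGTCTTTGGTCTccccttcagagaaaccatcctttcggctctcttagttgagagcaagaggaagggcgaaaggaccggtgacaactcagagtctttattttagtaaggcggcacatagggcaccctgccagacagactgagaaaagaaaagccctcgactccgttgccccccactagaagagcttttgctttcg

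Signals are given as log2 of the processed spot intensity minus the array's 75th percentile, and differences as log2 fold changes, colistin minus saline, with their SE and n = 4 per group. None of the 39 genes passed the test after adjustment over all 12411 genes, 0 higher and 0 lower (limma, Benjamini-Hochberg adjusted p under 0.05), against 2.00% of all genes in either direction, 1.46% higher and 0.540% lower. The smallest adjusted p among the 39 was 0.0615, for Acat1. At an unadjusted p under 0.05, 10 members were lower (25.6%) and 0 higher, against 12.2% and 10.5% of all genes. The fold change was negative in 26 of 39 members (66.7%) and in 54.9% of all genes, with a median of -0.57 against -0.14. In 8 members (20.5%) every saline array lay above every colistin array, against 11.7% of all genes, and in 0 members every colistin array lay above every saline array, against 6.89%. These 8 were Acsl1, Acat1, Hadh, Echs1, Etfb, Ehhadh, Acaa1a and Scp2. As the genes were chosen with earlier results of these data known, the shares only describe the members.

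**Figure D1:**
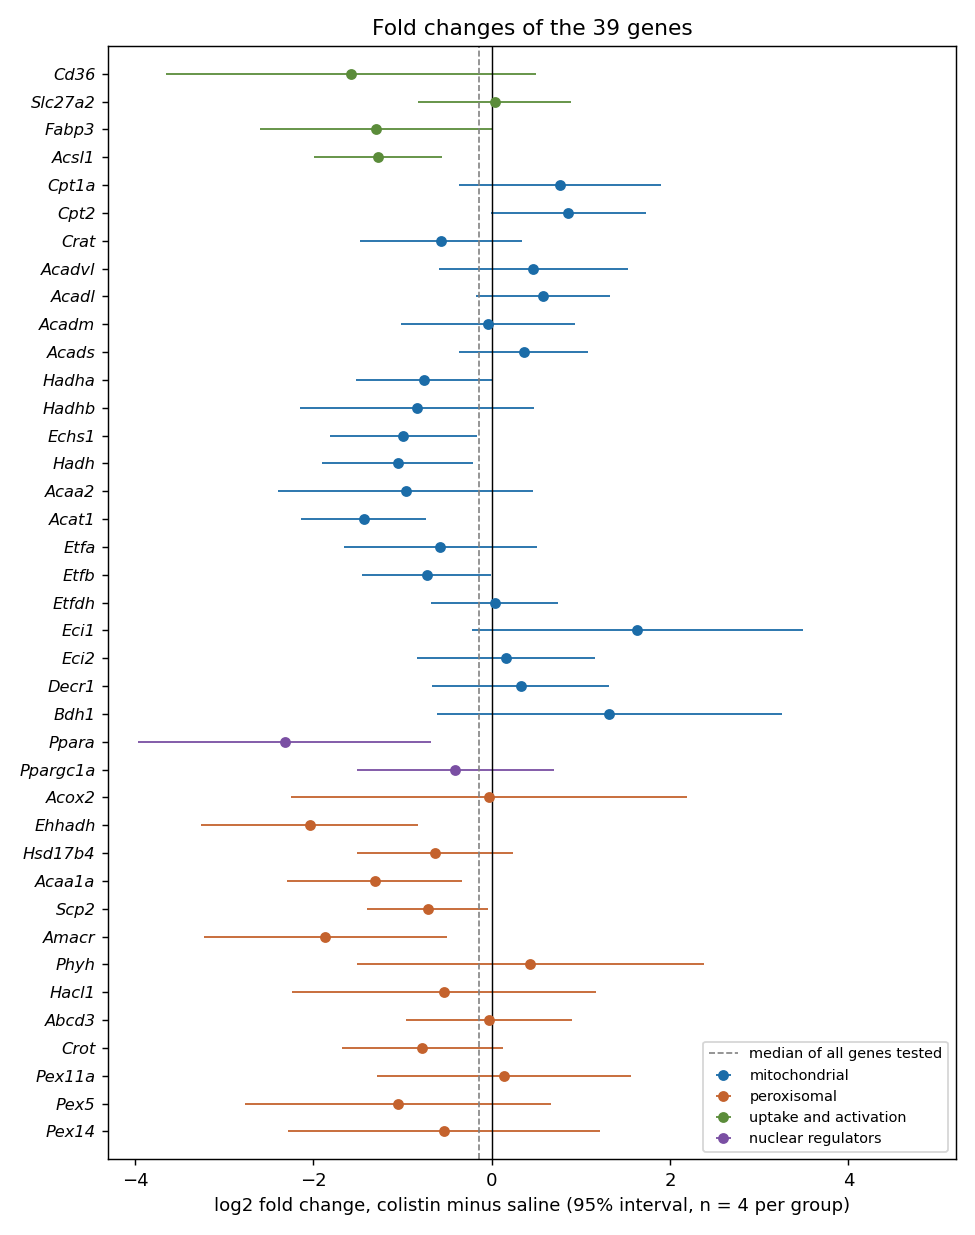
Log2 fold change, colistin minus saline, of each of the 39 genes with its 95% interval (n = 4 arrays per group), coloured by compartment and ordered by role. The dashed line is the median of all genes tested, -0.14. The intervals of 10 genes lie below 0, those of 29 include 0, and no gene passed the adjusted test.

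The intervals were wide. From the estimate to either bound they ran from 0.68 to 2.22 on the log2 scale with a median of 0.995, close to a 2-fold difference. The 95% interval lay wholly within a 2-fold change in either direction for 3 genes. These were Slc27a2 (-0.83 to 0.89), Etfdh (-0.68 to 0.75) and Abcd3 (-0.96 to 0.91).

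With normexp background correction 6 of the 39 genes passed and were lower, namely Acsl1, Echs1, Acat1, Ppara, Ehhadh and Amacr, with limma adjusted p between 0.0209 and 0.0482, and 0 were higher. This was 15.4% of the members, below the 21.8% of all genes that passed as lower in that setting, where 5.51% passed as higher. Acat1 was also called lower when only probes above background on all 8 arrays were kept (adjusted p = 0.0461). There 0.880% of all genes passed as lower and 1.30% as higher. With slide as a block 0 members passed, against 0.0403% of all genes lower and 0.282% higher, and with the replicate number as a block 0 passed, against 0% lower and 0.0403% higher.

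Of the 4 genes of uptake and activation, Acsl1 was the one whose groups did not overlap. It encodes a long-chain acyl-CoA synthetase of the outer mitochondrial membrane. Its signal was 3.39, 3.46, 3.69 and 4.17 on saline arrays 1 to 4 and 2.504, 2.40, 2.68 and 2.00 on colistin arrays 1 to 4. The groups did not overlap, and the log2 fold change was -1.28 ± 0.31, a 2.43-fold difference (adjusted p = 0.0843). Slc27a2, a very-long-chain acyl-CoA synthetase and fatty acid transporter of the proximal tubule, gave 0.03 ± 0.37 (adjusted p = 0.969). Fabp3, the heart-type fatty acid binding protein, was between 1.20 and 1.503 on the saline arrays and at -0.93, -0.93, 1.52 and 0.45 on the colistin arrays, so that colistin array 3 lay above every saline array. Its fold change was -1.29 ± 0.57 (adjusted p = 0.222).

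Cd36, the fatty acid translocase of endothelium, macrophages and fat cells, among other cells, split the saline arrays. It was at -2.16, 0.53, 0.33 and -3.60 on saline arrays 1 to 4, and at -2.68, -3.11, -3.003 and -2.42 on the colistin arrays. Saline array 4 was below every colistin array and the other three saline arrays were above them all, array 1 narrowly and arrays 2 and 3 widely. Saline arrays 1 and 4 shared slide 1. The fold change was -1.58 ± 0.90 (adjusted p = 0.319), and without saline arrays 1 and 4 it was -3.23 (adjusted p = 0.0234), where 0.234% of all genes passed as lower and 0.919% as higher. Cd36 was the 1 member that passed there, but the arrays left out held its lowest saline values. That fit therefore gives no separate support for a lower Cd36 signal. Within slides 1, 2 and 3 the difference was -0.23, -3.53 and -2.88. The second probe of Cd36 gave a difference of -3.33. Markers of endothelium, macrophages and fat cells were measured beside it, as log2 of their summed signal, and those of the proximal tubule are given below. The endothelial markers summed to between 5.25 and 5.88 on saline arrays and between 2.31 and 3.02 on colistin arrays, and 4 of 9 passed as lower, with Tie1 not well above background on any colistin array. Macrophage markers summed to 4.38 to 5.06 and 3.27 to 3.80, with 1 of 8 lower. Fat cell markers summed to 1.54 to 3.45 and 1.22 to 1.65, with 0 of 6 passing. The part of these cells in the Cd36 values was not tested, and in whole tissue fewer cells of a type and less RNA per cell cannot be told apart.

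The carnitine shuttle carries activated chains across the mitochondrial membranes. Cpt1a, the regulated outer-membrane carnitine palmitoyltransferase, was at -0.95, -1.31, -0.92 and 0.76 on the saline arrays and 0.49, 0.11, 0.37 and -0.35 on the colistin arrays. Saline array 4 was above every colistin array and the other three saline arrays were below them all, and the fold change was 0.76 ± 0.49 (adjusted p = 0.372). Cpt2, its inner-membrane partner, gave 0.86 ± 0.38 (adjusted p = 0.224), and 0.18 with normexp. Crat, the carnitine acetyltransferase, gave -0.57 ± 0.40 (adjusted p = 0.407). The carnitine/acylcarnitine carrier Slc25a20, which is not among the 39, gave 0.08 ± 0.67 (adjusted p = 0.956), and the plasma membrane carnitine transporter Slc22a5 gave -1.83 ± 0.46 (adjusted p = 0.0886).

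The 4 mitochondrial acyl-CoA dehydrogenases, which open each turn of the spiral for chains of different length, had fold changes between -0.04 and 0.58 with a median of 0.41. Acadl, the long-chain enzyme, was at 3.59, 4.20, 4.48 and 4.50 on the saline arrays and 4.99, 4.90, 4.80 and 4.38 on the colistin arrays. The groups overlapped through colistin array 4, and the fold change was 0.58 ± 0.33 (adjusted p = 0.315). Acadvl, for very long chains, gave 0.47 ± 0.46 (adjusted p = 0.559), and Acads, for short chains, gave 0.36 ± 0.31 (adjusted p = 0.503). Acadm, for medium chains, gave -0.04 ± 0.42 (adjusted p = 0.966), with a sign that turned in several settings.

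The 6 genes of the hydratase, dehydrogenase and thiolase steps that follow all had negative fold changes, between -1.43 and -0.75, with a median of -0.98. Acat1, the mitochondrial acetoacetyl-CoA thiolase, was at 3.18, 2.60, 2.55 and 2.73 on the saline arrays and 1.74, 0.96, 1.26 and 1.36 on the colistin arrays. No colistin array reached the lowest saline array, and the fold change was -1.43 ± 0.31, a 2.70-fold difference (adjusted p = 0.0615). Hadh, the hydroxyacyl-CoA dehydrogenase of short and medium chains, was at 3.06, 3.30, 3.96 and 4.01 on the saline arrays and 2.63, 2.64, 2.93 and 1.92 on the colistin arrays. These groups did not overlap either, with a fold change of -1.05 ± 0.37 (adjusted p = 0.161). Echs1, the short-chain enoyl-CoA hydratase, was at 3.08, 3.02, 2.81 and 3.86 against 2.10, 2.02, 2.78 and 1.91, with only 0.03 between the lowest saline and the highest colistin array, and gave -0.99 ± 0.36 (adjusted p = 0.17).

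Hadha and Hadhb, the pair with the shared upstream stretch shown above, gave -0.75 ± 0.34 (adjusted p = 0.226) and -0.84 ± 0.57 (adjusted p = 0.397). Hadha was at 3.36, 4.04, 3.68 and 4.42 on the saline arrays and 3.29, 3.43, 2.81 and 2.96 on the colistin arrays, and Hadhb was at -1.04, -1.56, -0.20 and 0.64 and at -1.99, -1.95, -0.51 and -1.04. Both were highest on saline array 4, but on colistin array 3 Hadha was lowest and Hadhb highest of the colistin arrays. Within slides 1, 2 and 3 the difference was -0.46, -1.23 and -0.56 for Hadha and -1.76, 1.05 and -1.31 for Hadhb. Acaa2, the last thiolase of the spiral, was at 3.61, 2.74, 3.39 and 1.14 on the saline arrays, so that saline array 4 was below 3 of the 4 colistin arrays, and gave -0.97 ± 0.62 (adjusted p = 0.369).

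On each array the median of a gene group was taken after subtracting every gene's saline mean. For the hydratase to thiolase genes it was -0.31, -0.17, 0.07 and 0.48 on saline arrays 1 to 4 and -0.99, -1.06, -0.86 and -1.34 on colistin arrays 1 to 4. For the 4 acyl-CoA dehydrogenases among the members it was -0.61, 0.03, 0.24 and 0.62 on the saline and 0.47, 0.70, 0.22 and 0.12 on the colistin arrays. The former was lower on every colistin array than on any saline array, and the latter lay within the saline range on 3 of 4 colistin arrays and above it on colistin array 2. These medians describe the members and carry no test, and the genes of a group share the same arrays.

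**Figure D2:**
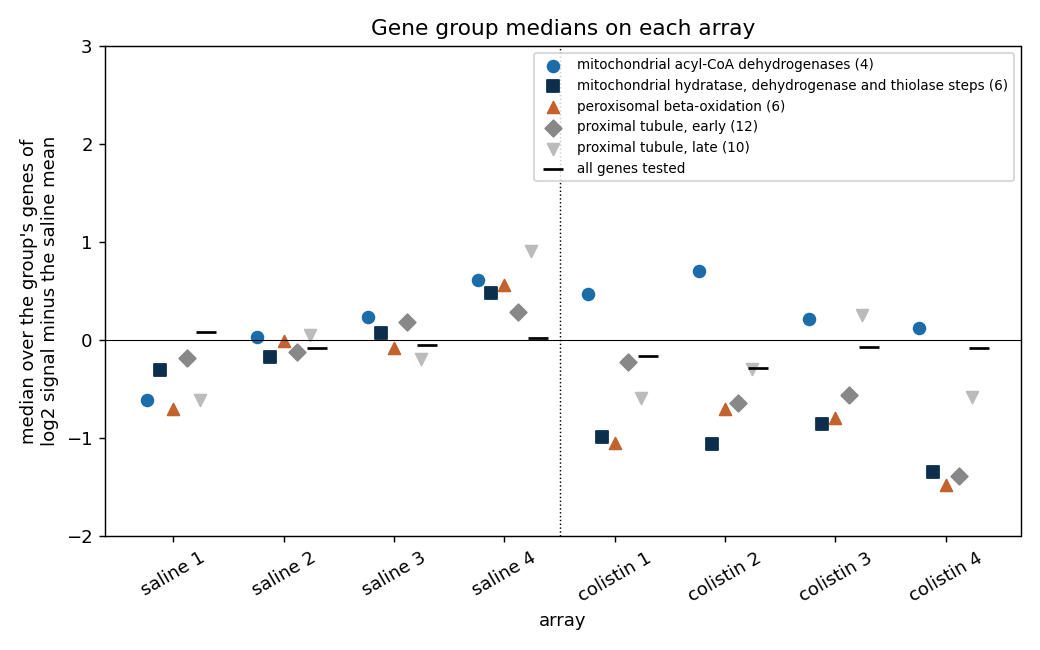
Median over the genes of each group (number of genes in brackets) of log2 signal minus the gene's saline mean, on the 8 arrays, with proximal tubule markers and all genes tested beside them. The hydratase to thiolase genes lie between -1.34 and -0.86 on the colistin arrays and the 4 acyl-CoA dehydrogenases among the members between 0.12 and 0.70.

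Electrons from the acyl-CoA dehydrogenases pass through the electron transfer flavoprotein and its dehydrogenase. Etfb, a flavoprotein subunit, was at 6.11, 5.64, 5.67 and 6.14 on the saline arrays and 5.10, 5.61, 5.24 and 4.69 on the colistin arrays. The groups did not overlap, by a margin of 0.03, and the fold change was -0.73 ± 0.32 (adjusted p = 0.219). Etfa, the other subunit, gave -0.58 ± 0.47 (adjusted p = 0.477), and Etfdh, the membrane dehydrogenase, gave 0.03 ± 0.31 (adjusted p = 0.96).

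The 3 auxiliary enzymes, which prepare double bonds of unsaturated chains for the spiral, had positive fold changes. Eci1, the mitochondrial enoyl-CoA isomerase, was at -1.68, 0.51, 1.61 and 2.11 on the saline arrays and 3.07, 2.15, 1.55 and 2.30 on the colistin arrays. Saline array 1 stood far below the rest, and the fold change was 1.63 ± 0.81 (adjusted p = 0.264). The related isomerase gene Eci2 gave 0.16 ± 0.43 (adjusted p = 0.846), and the dienoyl-CoA reductase gene Decr1 gave 0.33 ± 0.43 (adjusted p = 0.669). Bdh1, the ketone body enzyme hydroxybutyrate dehydrogenase, gave 1.32 ± 0.84 (adjusted p = 0.367), a value that rests on saline arrays partly at background and was -0.05 with normexp.

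Ppara, the gene of PPAR alpha, gave a fold change of -2.32 ± 0.71, a 5.002-fold difference (adjusted p = 0.133). With normexp it was -1.33, and without saline arrays 1 and 4 it was -1.76. It was at -0.11, -2.77, -0.77 and -1.17 on the saline arrays and -3.19, -4.62, -2.18 and -4.13 on the colistin arrays. Saline array 2 lay below colistin array 3, both on slide 2, where the difference was 0.60, against -3.99 on slide 1 and -2.88 on slide 3. Ppargc1a, the gene of PGC-1 alpha, was at 0.66, 0.90, 1.26 and 0.92 on the saline arrays and 1.53, -0.74, 0.61 and 0.72 on the colistin arrays. Its colistin values spread to both sides of the saline values, with a fold change of -0.41 ± 0.48 (adjusted p = 0.632).

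**Figure D3:**
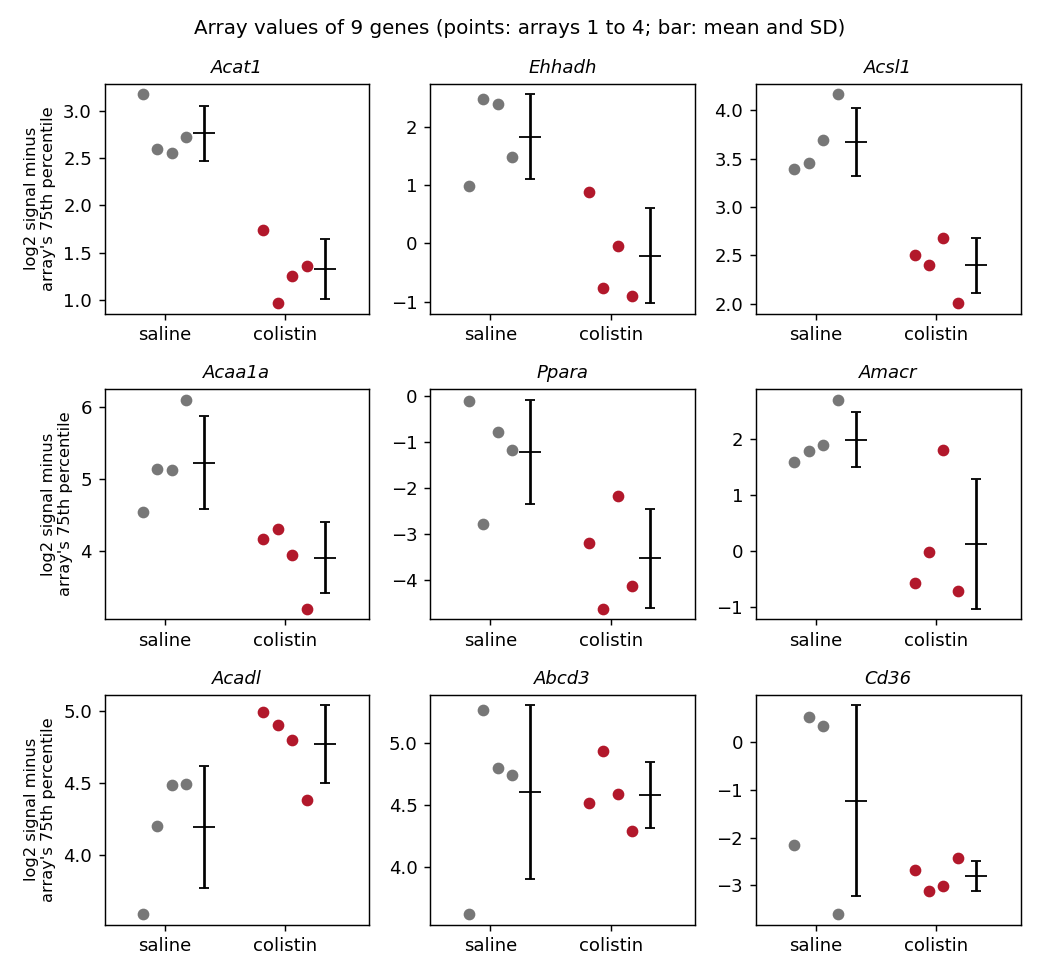
Log2 signal minus the array's 75th percentile for 9 genes, with a point per array, and the mean and SD beside each group of 4. The axis range differs between panels. Acat1, Ehhadh, Acsl1 and Acaa1a do not overlap between groups, while Acadl, Abcd3, Ppara, Amacr and Cd36 do.

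All 6 peroxisomal beta-oxidation genes had negative fold changes, between -2.04 and -0.03, with a median of -1.02. Ehhadh, the bifunctional enzyme of the straight-chain pathway and a known PPAR alpha target, was at 0.98, 2.47, 2.40 and 1.48 on the saline arrays and 0.87, -0.76, -0.05 and -0.91 on the colistin arrays. Saline array 1 and colistin array 1 came within 0.11 of each other without crossing, and the fold change was -2.04 ± 0.53, a 4.12-fold difference (adjusted p = 0.0953). Amacr, the racemase that prepares branched chains, was at 1.58, 1.79, 1.89 and 2.70 against -0.57, -0.01, 1.81 and -0.71. Colistin array 3 was within the saline range and the other 3 were below it, and the fold change was -1.86 ± 0.59 (adjusted p = 0.141). Over the fits that left out 1 array its adjusted p ran from 0.0553, without colistin array 3, to 0.280.

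Acaa1a, a peroxisomal thiolase, was at 4.54, 5.13, 5.12 and 6.10 on the saline arrays and 4.17, 4.31, 3.95 and 3.20 on the colistin arrays. The fold change was -1.31 ± 0.42, a 2.49-fold difference (adjusted p = 0.145). The gene's second probe differed in sign, with 0.32, and the near-identical gene Acaa1b, which gave -1.41 ± 0.34 (adjusted p = 0.0843), leaves the target of these probes uncertain. Scp2, a sterol carrier and branched-chain thiolase, was at 2.59, 2.65, 2.75 and 3.25 against 1.77, 2.32, 2.25 and 2.02, with no overlap, and gave -0.72 ± 0.30 (adjusted p = 0.202). Hsd17b4, the bifunctional enzyme of the branched-chain pathway, gave -0.64 ± 0.38 (adjusted p = 0.337). Acox2, a peroxisomal acyl-CoA oxidase, gave -0.03 ± 0.97 (adjusted p = 0.987) and ran from -4.67 to -0.81 on the saline arrays alone.

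The remaining 7 peroxisomal members act in acyl transport and export, alpha-oxidation and biogenesis. Abcd3, an ABC transporter of the peroxisomal membrane, gave -0.03 ± 0.40 (adjusted p = 0.976). Crot, an enzyme that turns shortened chains into carnitine esters for export, gave -0.78 ± 0.39 (adjusted p = 0.271). Of the alpha-oxidation genes, which remove single carbons from branched chains, Phyh gave 0.43 ± 0.85 and Hacl1 -0.54 ± 0.74 (adjusted p = 0.778 and 0.684). Of the peroxins, Pex11a, which acts in peroxisome division, gave 0.14 ± 0.62, and Pex5 and Pex14, the import receptor and its docking protein, gave -1.05 ± 0.75 and -0.54 ± 0.76 (adjusted p = 0.907, 0.415 and 0.691).

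Set side by side, mitochondrial and peroxisomal members differed in their medians. The 20 mitochondrial members had a median fold change of -0.0032, with 10 positive and 10 negative. The 13 peroxisomal members had a median of -0.64, with 2 positive and 11 negative. Every saline array lay above every colistin array in 4 mitochondrial and 3 peroxisomal members, against 11.7% of all genes. The reverse held in 0 members of either set, against 6.89% of all genes. The median of all genes was -0.14. With normexp, which moved the median of all genes to -0.34, the medians relative to all genes were 0.33 and -0.19, against 0.14 and -0.50 with the processed signal. On colistin arrays 1 to 4 the mitochondrial median relative to the saline means was -0.04, 0.19, 0.03 and -0.39 and the peroxisomal one -0.95, -0.56, -0.66 and -0.93. On saline arrays 1 to 4 they were -0.49, 0.02, 0.21 and 0.36, and -0.72, 0.09, -0.06 and 0.17. The peroxisomal median was the lower on each colistin array, and on saline arrays 1, 3 and 4. No test was made of a difference between these sets of genes. The mitochondrial median was above 0 with quantile normalization (0.05), without colistin array 4 (0.07) and without saline array 3 (0.09). Over the fits that left out 1 array it ran from -0.18 to 0.09, and the peroxisomal median from -0.79 to -0.54. Without saline array 1 the mitochondrial median was below that of all genes, at -0.037 relative to it, and the peroxisomal one was at -0.65.

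The members shared a pattern between arrays of the same group. Within the saline group, array 1 was the lowest for 23 of 39 members, against 22.3% of all genes, and array 4 was the highest for 19, against 31.8%. Within the colistin group, array 4 was the lowest for 20 of 39, against 20.4% of all genes. Saline array 1 was the lowest saline array for Acadl, Abcd3, Decr1, Hsd17b4 and Acaa1a, among others. Late proximal tubule markers, relative to their saline means, had a median of -0.61 on saline array 1 and 0.91 on saline array 4, and early ones had -1.39 on colistin array 4 against -0.22 to -0.64 on the other colistin arrays. The late list includes the member Slc27a2 and, of the other pathway genes, Acsm3, so it is not fully separate from them. Early proximal tubule markers summed to between 9.15 and 9.80 on the saline arrays and between 7.77 and 8.46 on the colistin arrays, with 2 of 12 lower and 0 higher. Late markers summed to 7.68 to 9.17 and 7.46 to 8.54, with 0 of 10 passing. The tubular injury markers summed to 3.21 to 3.85 and 6.47 to 7.10, with 4 of 11 higher. Markers of other nephron segments had lower sums on every colistin array than on any saline array. Those of the thick ascending limb summed to 5.10 to 6.32 and 1.16 to 3.29, with 1 of 7 lower, and those of intercalated cells to 4.47 to 5.003 and -1.05 to 3.31, with 1 of 6 lower. Principal cell markers summed to 5.14 to 5.54 and 1.02 to 4.505, with 0 of 6 passing, and distal convoluted and connecting tubule markers to 6.08 to 6.75 and 2.08 to 5.07, with 0 of 5 passing. The part of proximal tubule and other segment content in the members' values was not tested.

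**Figure D4:**
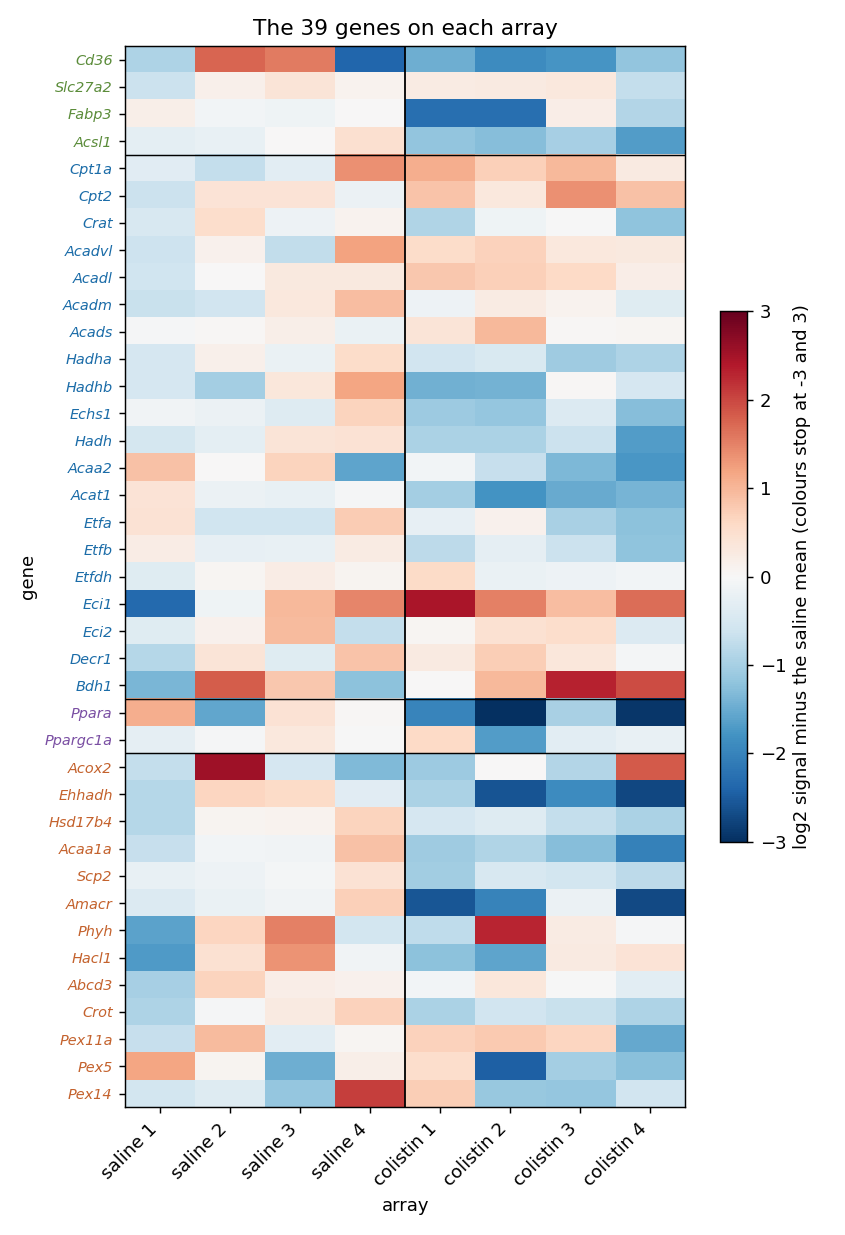
Log2 signal minus the gene's saline mean for the 39 genes (rows, ordered by role and coloured by compartment) on the 8 arrays (columns), with colours that stop at -3 and 3. Saline array 1 is the lowest saline array for 23 genes and colistin array 4 the lowest colistin array for 20.

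Other genes of the pathway were tested as lists. Of 114 listed genes 100 could be tested, and 3 passed as higher and 1 as lower, against 1.46% and 0.540% of all genes, with a median of -0.18. The 30 other peroxisomal enzymes and transporters had 9 positive and 21 negative fold changes with a median of -0.49, and the 13 other peroxins 4 positive and 9 negative with a median of -0.41. Catalase, Cat, gave -1.35 ± 0.55 (adjusted p = 0.198).

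Of 9 further uptake and activation genes, 8 had positive fold changes, with a median of 1.15, and Acsl5, another long-chain acyl-CoA synthetase, rose by 3.31 ± 0.64 (adjusted p = 0.0454). With normexp that median was 0.50 and the value of Acsl5 1.72. Of 22 lipid regulators and PPAR targets, 2 passed as higher and 0 as lower, with 11 positive and 11 negative fold changes and a median of 0.02. Angptl4, a secreted inhibitor of lipoprotein lipase, rose by 3.32 ± 0.53 (adjusted p = 0.0234), from between -3.77 and -1.82 on the saline arrays to between 0.13 and 1.06 on the colistin arrays. With normexp its value was 1.71. Plin2, a coat protein of lipid droplets, rose by 2.05 ± 0.40 (adjusted p = 0.0454), and its groups did not overlap, with 3.48, 4.14, 4.30 and 5.05 against 6.42, 6.73, 6.04 and 5.99. Pdk4, Cyp4a1 and Fabp1 did not pass. Pdk4, an inhibitor of pyruvate dehydrogenase, gave 1.51 ± 0.63 (adjusted p = 0.206), Cyp4a1, a fatty acid hydroxylase, 0.06 ± 0.46 (adjusted p = 0.951), and Fabp1, the liver-type fatty acid binding protein, 1.60 ± 1.19 (adjusted p = 0.437). None of the 26 other mitochondrial genes tested passed, with 13 of either sign and a median of -0.01.

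The calls of Acsl5, Angptl4 and Plin2 were each lost when any 1 colistin array was left out. Without colistin array 1, 2, 3 or 4 the adjusted p was 0.111, 0.118, 0.0827 and 0.122 for Acsl5, 0.0687, 0.0655, 0.0621 and 0.0629 for Angptl4, and 0.123, 0.116, 0.0958 and 0.0966 for Plin2. Without saline array 1, 2, 3 or 4 it was 0.0918, 0.029, 0.0609 and 0.0699 for Acsl5 and 0.0807, 0.0873, 0.0787 and 0.0292 for Plin2, while for Angptl4 it was 0.05, just above the threshold, without saline array 1 and between 0.0239 and 0.0388 without another saline array. With slide as a block Acsl5, Angptl4 and Plin2 had adjusted p-values of 0.143, 0.0814 and 0.14.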

How the data were processed

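Cy3-labelled RNA of each sample was hybridised to its own Agilent array, per the labels. The authors' deposited scanner files give each spot's intensity, read with Agilent Feature Extraction 10.5 according to the submitters' processing notes. The signals are, per the file headers, background-corrected and detrended within an array, and they are not scaled between arrays. A deposited table of the authors holds log2 values for the same probes. Its differences between arrays tracked the processed signal (correlation 0.99986 or more), with array medians from -0.229 to 0.232, so its scale is log2, its centring remains unknown, and it served as an alternative.

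Of 30367 non-control probes 18643 could be named by RefSeq accession with the GRCr8 gene table. Spots marked as outlying or non-uniform were dropped and a probe's spots averaged. Log2 signal was taken relative to the array's 75th percentile. A probe was kept if 3 or more arrays of a group showed it well above background, and the probe with the highest mean stood for its gene. limma 3.58.1 in R 4.3.3 (lmFit, eBayes, two-sided) compared the groups, with Benjamini-Hochberg adjustment over 12411 genes. The fit was tested on simulated data. The number of arrays limits the precision.

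The files place the arrays on 3 slides. Slide 1 held saline 1, saline 4 and colistin 2, slide 2 saline 2 and colistin 3, and slide 3 saline 3, colistin 1 and colistin 4. The members and gene lists were chosen with earlier results of these data known. Named genes were the 39 members, up to 6 passing other pathway genes per direction, and fixed genes (Slc25a20, Slc22a5, Pdk4, Cyp4a1, Fabp1 and Cat, with others not reported here). Acaa1b, Tie1, Acadsb, Gcdh, Acad9, Ivd, Acad11 and the second probes were singled out after their values were seen. The normexp alternative, planned on mean spot signal, used the median spot and background signals, with an offset of 50. The other alternatives were other scalings, filters and probe rules, slide and replicate blocks and left-out arrays.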

Additional observations from a re-analysis of the deposited data

Results flagged for a closer look

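In 78 groups of 4 arrays (39 genes, saline and colistin), 3 held an array far from the other 3 by Dixon's 95% criterion, where chance gives about 1 in 20. Slc27a2 was 4.18 on colistin array 4, with the nearest other colistin array at 5.13. Pex11a was -0.38 on colistin array 4, with the nearest other at 1.80. Etfdh was 1.10 on colistin array 1, with the nearest other at 0.43.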

How the results depend on the processing

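All results here concern limma fits. Over the whole array 181 genes were higher and 67 lower. With normexp these were 684 and 2706, with slide as a block 35 and 5, without saline arrays 1 and 4 114 and 29, and when leaving out 1 array they ranged from 59 to 190 and from 19 to 65. Higher genes made up 181 of 248 calls, against 20.2% with normexp, 59.6% when only probes above background on all 8 arrays were kept, and 87.5% with slide as a block. With the replicate number as a block 5 were higher and 0 lower, so that 100% of the calls were higher. Arrays of the same number correlated between -0.02 and 0.01 in their deviations from the group means, so the numbers give no pairing. The replicate block changed no call among the members.

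Members called lower numbered 0, against 6 with normexp, 1 over probes above background on all 8 arrays and 1 without saline arrays 1 and 4. The last was Cd36, whose lowest saline values were on the arrays left out. Leaving out 1 array called 0. Of the 39 members, 27 kept their sign in all 18 settings and 12 did not. With normexp the log2 fold change was 0.053 for Acadm, -0.050 for Bdh1, -0.022 for Phyh and 0.10 for Abcd3. With quantile normalization it was 0.032 for Acadm and 0.071 for Acox2, and with slide as a block 0.025 for Acadm and -0.076 for Etfdh. Without saline arrays 1 and 4 it was -0.24 for Slc27a2, 0.10 for Acadm, 0.022 for Etfa, -0.11 for Etfdh, -0.37 for Eci2, -0.65 for Phyh, -0.18 for Pex11a and 0.23 for Pex14. When 1 array was left out it ranged from -0.18 to 0.28 for Slc27a2, -0.26 to 0.27 for Acadm, -0.15 to 0.11 for Etfdh, -0.075 to 0.47 for Eci2, -0.74 to 0.017 for Ppargc1a, -0.65 to 0.81 for Acox2, -0.19 to 0.94 for Phyh, -0.36 to 0.20 for Abcd3, -0.092 to 0.70 for Pex11a and -0.96 to 0.16 for Pex14. The cause was not tested.

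Leaving out arrays leaves fewer samples in the fit. Dim saline arrays limit the weakest probes, above all that of Bdh1.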

Other observations

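For the 6 members with 2 probes, the second probe gave the following differences between group means. It had the same sign for Cd36 (-3.33, against -1.58 for the probe used), Hacl1 (-1.69 against -0.54) and Hadha (-0.22 against -0.75). It had the opposite sign for Acaa1a (0.32 against -1.31), Pex14 (0.31 against -0.54) and Pex5 (0.15 against -1.05).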
